A study of Mus musculus with 4 samples.

Results

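The mRNAs of voltage-gated sodium channel subunits were followed here, the alpha subunits Scn1a, Scn2a, Scn3a and Scn8a and the beta subunits Scn2b, Scn3b and Scn4b, 7 of the 31053 genes in the count tables. They were chosen by gene family and matched to the tables by Ensembl identifier, by a rule that uses no measured value, though with earlier results of these data known, and all 7 passed the filter on low counts. The libraries came from cultured cortical neurons of wild-type C57BL/6J mouse embryos, grown with floxuridine to hold back dividing cells. In RPS2 eCLIP, RNA is crosslinked to protein, trimmed with RNase I and pulled down with an antibody to RPS2, which sits in the small subunit of the ribosome. The 2 IP libraries, which the labels mark as depleted of ribosomal RNA, were set against 2 total RNA libraries, which the labels mark as untreated, taken from the same samples ahead of the pulldown, so that each replicate number is a pair. Any effect of the depletion and any effect of the IP cannot be told apart here.

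Voltage-gated sodium channels open on depolarization and carry the rising phase of the action potential. The large alpha subunit folds into 4 homologous domains and holds the pore, the voltage sensors and the fast inactivation gate. The small beta subunits cross the membrane once, carry an immunoglobulin-like domain, and tune gating and surface placement of the channel. In the forebrain Scn2a (Nav1.2) and Scn8a (Nav1.6) serve mainly excitatory neurons and their axon initial segments, Scn1a (Nav1.1) is prominent in inhibitory interneurons, and Scn3a (Nav1.3) is highest before birth. Scn2b and Scn4b bind the alpha subunit through a disulfide bond, while Scn3b binds it without one.

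The alpha and beta genes differ in how much of the mRNA is coding. On mm10, Scn3a (chromosome 2, 65457118 to 65567627, minus strand), Scn2a (65620771 to 65767447, plus strand) and Scn1a (66270778 to 66440840, minus strand) lie in 1 cluster, and Scn8a lies on chromosome 15 (100869858 to 101045938, plus strand). All 3 beta genes lie on chromosome 9, plus strand. Scn3b spans 40269217 to 40291618, and Scn2b (45117782 to 45130070) ends 8324 bases before Scn4b starts (45138395 to 45154152). Per gene 1 protein-coding GENCODE M21 transcript was taken, with the longest coding sequence among those tagged CCDS, the consensus coding set. In it the alpha genes had 27 exons each and a coding sequence of 5844 to 6030 bases. That was 71.9% of the transcript in Scn1a, 68.4% in Scn3a, 67.4% in Scn2a and 52.6% in Scn8a. The beta coding sequences were 648 bases in Scn2b and Scn3b and 687 in Scn4b, only 13.9%, 15.6% and 13.8% of their transcripts. The encoded proteins are 1947 to 2009 residues long for the alpha and 215 to 228 for the beta subunits. Most of a beta mRNA is 3' UTR, from 3091 bases in Scn3b to 3766 in Scn2b.

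**Figure D1:**
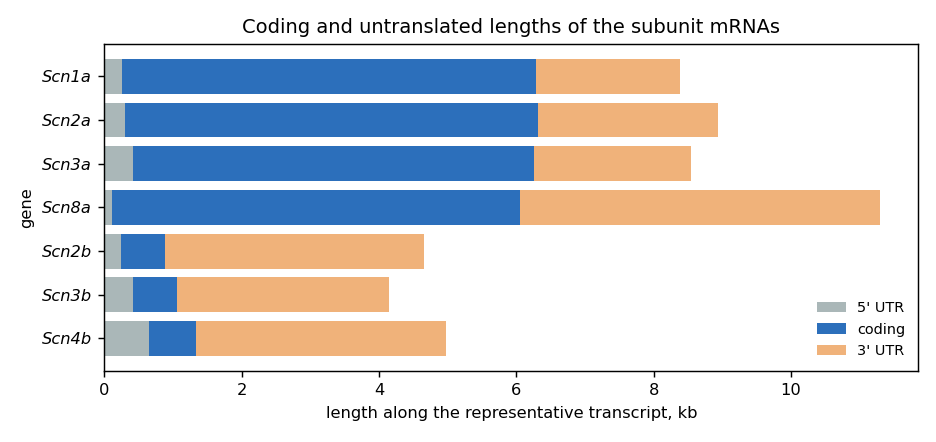
Lengths in kb of the 5' UTR, coding sequence and 3' UTR of 1 representative GENCODE M21 transcript per gene. The alpha coding sequences are 5844 to 6030 bases long and the beta coding sequences 648 to 687 bases, while the 3' UTR of Scn8a alone reaches 5241 bases.

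The alpha subunits are close relatives. Over aligned residues their proteins were 77.9% to 88.2% identical, with Scn1a and Scn2a the closest pair.

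No such likeness joins the beta subunits. The 30-base coding windows most alike between Scn2b (chr9:45125009-45125038) and Scn4b (chr9:45146758-45146787), both in exon 2, are shown 5' to 3' on the coding strand to make the distance between them visible, with shared bases in capitals.
Scn2b: CCgcCTGCCCTGtACCTTCaaCtcCTGcTA
Scn4b: CCtgCTGCCCTGcACCTTCtcCagCTGtTA
They shared 22 of 30 bases, and the best windows of the other beta pairs shared 19 and 20. Over aligned residues the beta proteins were 23.6% to 31.0% identical.

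This bears on the counts, because a read that aligned to several loci was not counted. The longest identical coding run was 188 bases between Scn1a and Scn2a, and 143 bases between Scn3a and each of them. Of all 50-base words in the annotated transcripts, 4.03% of those of Scn1a, 5.76% of Scn2a and 6.49% of Scn3a also occurred in transcripts of another gene, against 0.0374% of Scn8a, 1.0% of Scn2b and 0% of Scn3b and Scn4b. The read length is not given in the sources used here, so how many reads of Scn1a, Scn2a and Scn3a went uncounted is uncertain. No member shared counted exons with an exon of another gene on either strand.

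Library totals ran from 4899718 to 16460545 counts, and the 7 members held between 69 counts (Scn4b, total RNA 2) and 5118 counts (Scn8a, IP 1) in a library. A single gene, Gm42418, took 15.3% to 42.6% of a library. Levels are therefore given as CPM, the count over the TMM-scaled library size, and between genes as CPM per kb of exonic length. The 5 neuron markers had counts in every library, with summed levels of 2573 to 3219 CPM, and excitatory and GABAergic markers summed to 2357 to 2817 and 1103 to 1270 CPM. Replicate numbers 1 and 2 are called culture 1 and culture 2 here, though the sources do not say that they were separate cultures. The 5 astrocyte markers summed to 1621 CPM (IP) and 1367 CPM (total RNA) in culture 1, against 452 and 424 CPM in culture 2. Microglia markers summed to 59.8 and 58.1 CPM in culture 1 against 6.83 and 4.93 CPM in culture 2, where Cx3cr1 was at 0 in total RNA. The cultures were thus neuronal with different amounts of glial RNA. Nothing says that the cultures came from separate litters, so p-values speak only for these samples. In the test with the replicate number as a block, used below, the spread is a trend shared by all genes and not each gene's own. In bulk samples fewer cells of a type and less RNA per cell cannot be told apart.

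Scn8a was the most abundant alpha mRNA in every library. Per kb it stood at 25.8 CPM per kb in total RNA 1, 23.2 in total RNA 2, 23.5 in IP 1 and 19.9 in IP 2, so that the groups overlapped. Scn2a followed at 16.1 and 12.6 CPM per kb in total RNA and 17.1 and 11.3 in the IP. Scn1a stood at 7.31 and 4.37 CPM per kb in total RNA and 7.59 and 5.03 in the IP. For both genes the cultures lay apart and the library kinds overlapped. Scn3a, the embryonic subunit, was the lowest of all 7, at 2.29 and 1.06 CPM per kb in total RNA and 2.02 and 0.973 in the IP.

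Of the beta subunits, Scn2b reached a level that overlapped that of Scn8a. It stood at 26.97 and 17.7 CPM per kb in total RNA and 27.2 and 20.6 in the IP. Scn3b stood at 8.28 and 5.60 CPM per kb in total RNA and 9.32 and 8.85 in the IP, so both IP libraries lay above both total RNA libraries. Scn4b, best known from striatal and Purkinje neurons, was the lowest beta mRNA at 3.26 and 2.28 CPM per kb in total RNA and 4.40 and 3.80 in the IP, where again the groups did not overlap.

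Ordered by mean level in total RNA, the genes ran Scn8a (24.5 ± 1.87 CPM per kb, SD, n = 2), Scn2b (22.3 ± 6.57), Scn2a (14.3 ± 2.52), Scn3b (6.94 ± 1.89), Scn1a (5.84 ± 2.08), Scn4b (2.77 ± 0.697) and Scn3a (1.67 ± 0.871). The libraries of neighbours overlapped for Scn8a and Scn2b, for Scn3b and Scn1a, and for Scn4b and Scn3a, while the libraries of the other neighbours did not. Compared inside each library, Scn3b was above Scn1a and Scn4b above Scn3a in all 4, whereas Scn2b was above Scn8a in total RNA 1 and below it in total RNA 2. In the IP the order was the same but for Scn2b (23.9 ± 4.71) ahead of Scn8a (21.7 ± 2.49), which also overlapped, with Scn2b the higher inside both IP libraries.

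**Figure D2:**
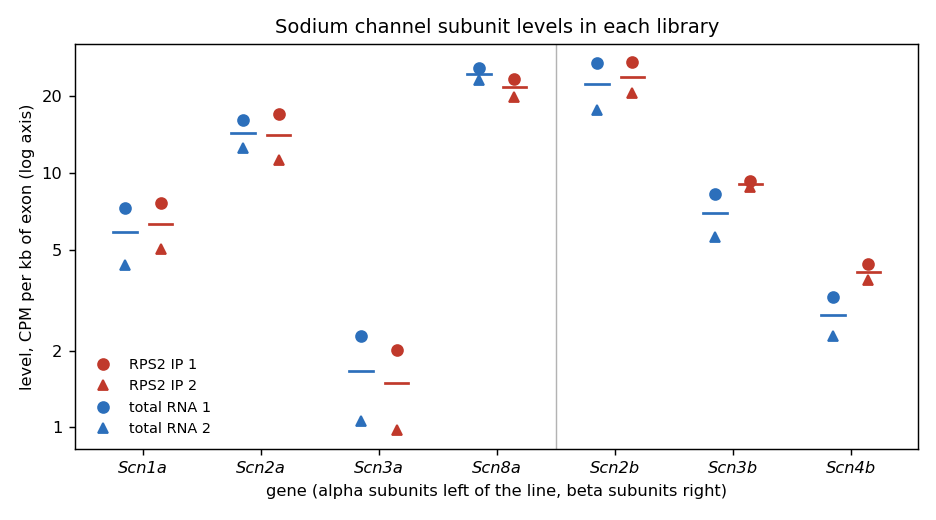
Level of each subunit mRNA in the 4 libraries, in CPM per kb of exon on a log axis, with circles for replicate 1, triangles for replicate 2 and short lines for the mean of each group. Replicate 1 lies above replicate 2 for every gene in both groups, and both IP libraries lie above both total RNA libraries for Scn3b and Scn4b.

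Within the alpha family the make-up was much alike in the IP and in total RNA. Scn8a made up 50.1% and 56.3% of the summed alpha level per kb in total RNA and 46.8% and 53.6% in the IP. Scn2a made up 31.3% and 30.5% in total RNA and 34.0% and 30.3% in the IP. Scn1a held 14.2% and 10.6%, then 15.1% and 13.5%, and Scn3a held 2.57% to 4.44% across the libraries. The IP and total RNA ranges overlapped for Scn1a, Scn2a and Scn8a, and for Scn3a as well. In the beta family Scn2b made up 70.0% and 69.2% of the summed level in total RNA and 66.5% and 61.9% in the IP. The share of Scn4b was 8.47% and 8.91% in total RNA and 10.7% and 11.4% in the IP, and that of Scn3b was 21.5% and 21.9% in total RNA and 22.8% and 26.6% in the IP. For all 3 beta genes the shares in the IP and in total RNA did not overlap. Shares within a library add up to a whole, so the 3 are not separate results. They come from the same counts as the Scn3b and Scn4b calls below. With 2 libraries of each kind this is a description only.

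**Figure D3:**
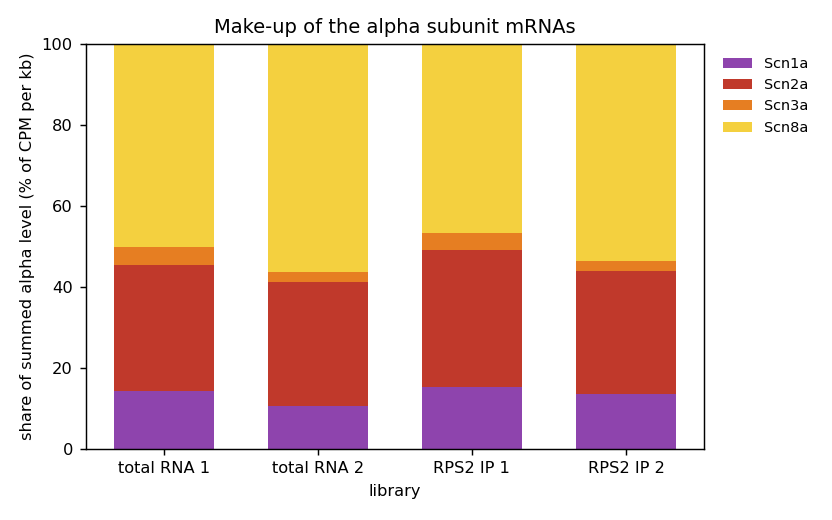
Stacked bars of the share, in percent, that each alpha gene held of the summed alpha level (CPM per kb) in each library. Scn8a takes 46.8% to 56.3% and Scn2a 30.3% to 34.0% of every bar, and Scn3a at most 4.44%.

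To ask which subunit mRNAs the ribosome IP recovered beyond their level in total RNA, the IP was compared with total RNA in edgeR's quasi-likelihood test with the replicate number as a block, the adjusted p taken over all 12336 genes tested. Scn3b and Scn4b were called higher in the IP, by 1.33-fold and 1.496-fold, and no member was called lower. That is 2 of 7 members called higher, where 6.63% of all genes tested were, and 0 of 7 called lower, where 7.55% were. At an unadjusted p under 0.05 the counts were likewise 2 higher and 0 lower. Both IP libraries lay above both total RNA libraries for 2 members against 16.9% of genes, and below them for 0 against 14.9%.

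Scn4b had the highest ratio. IP libraries 1 and 2 held 21.9 and 18.9 CPM of it, and total RNA libraries 1 and 2 held 16.3 and 11.3 CPM, so that the IP was higher within each pair, by 0.42 and 0.73 on the log2 scale. edgeR gave a log2 fold change of 0.58 ± 0.19 (SE) at an adjusted p of 0.0185, above the value of 92.9% of genes. Scn3b stood at 50.9 and 48.3 CPM in IP 1 and 2, against 45.2 and 30.6 CPM in total RNA 1 and 2. For it edgeR gave 0.41 ± 0.13 (SE) at an adjusted p of 0.0137, but the pairs were uneven, at 0.17 and 0.66. That gap of 0.49 was 2.89 times the counting error of the difference, so the pairs differed by more than counting alone gives.

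Scn2b, the most counted beta gene, was not called. It stood at 127 and 95.7 CPM in IP 1 and 2, against 126 and 82.3 CPM in total RNA 1 and 2, which overlapped. The log2 fold change was 0.11 ± 0.11 (95% interval -0.096 to 0.32) and the pair ratios were 0.014 and 0.22. All 3 beta genes had ratios above 0 in both pairs.

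None of the alpha genes was called. Scn8a stood at 370 and 314 CPM in IP 1 and 2, against 407 and 365 CPM in total RNA 1 and 2. The ratio was below 0 in both pairs (-0.14 and -0.22), and the log2 fold change of -0.18 (95% interval -0.37 to 0.016) had an edgeR adjusted p of 0.243. Scn2a stood at 217 and 144 CPM in IP 1 and 2, against 205 and 160 CPM in total RNA 1 and 2. Its fold change was -0.035 (interval -0.23 to 0.16), and it was the only member whose ratio changed sign between the pairs, from 0.080 to -0.15. Scn1a was at 0.13 (interval -0.099 to 0.35) and Scn3a at -0.15 (interval -0.50 to 0.19), the latter from only 80 to 348 counts per library. In this blocked fit no alpha interval reached below -0.50 or above 0.35 on the log2 scale. Without the replicate block every alpha gene had a larger standard error. It was 0.209 against 0.098 for Scn8a and 0.511 against 0.175 for Scn3a, so these bounds hold only under the block.

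**Figure D4:**
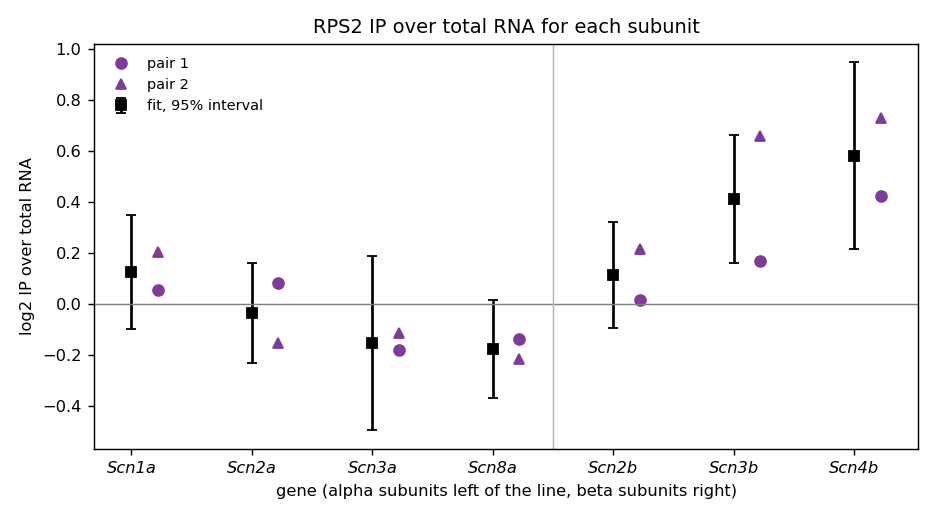
log2 ratio of RPS2 IP to total RNA for each gene, with squares for the blocked fit and its 95% interval, circles for pair 1 and triangles for pair 2. The intervals of Scn3b and Scn4b lie above 0 and those of the other 5 genes include 0.

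Both calls, and the intervals of every member, leaned on the pairing and on an assumption about the spread. Deviations from the group means had a correlation of 0.733 between IP and total RNA of the same number, and the blocked fit kept 1 residual degree of freedom, so every gene shared a fitted trend of dispersion. Without the replicate block 0 of 12336 genes were called, 0 members had an unadjusted p under 0.05, and Scn3b and Scn4b had adjusted p-values of 1, at log2 fold changes of 0.39 and 0.57. Scaling by library totals in place of TMM also ended both calls (edgeR adjusted p 0.153 for Scn3b and 0.0914 for Scn4b, at 0.33 and 0.50). Some markers of other cells moved between the library kinds as well. Of the 4 astrocyte markers tested 2 were called higher in the IP, and of 3 microglia markers 0 were. Of the 5 neuron markers 1 was called higher and 1 lower. Among all genes tested 6.63% were called higher and 7.55% lower. The part of these markers in the ratios of Scn3b and Scn4b was not tested.

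The large and the small subunits were then set against each other inside each library, which does not depend on how libraries are scaled. The summed alpha counts were 3.86 and 4.72 times the summed beta counts in total RNA 1 and 2, and 3.49 and 3.23 times in IP 1 and 2. Both IP libraries thus lay below both total RNA libraries. The log2 ratio of alpha to beta differed by -0.35 in the IP (-0.15 in pair 1 and -0.55 in pair 2), from a mean of 2.09 ± 0.21 in total RNA to 1.75 ± 0.080 in the IP (SD, n = 2). The exact permutation test over libraries, two-sided, gave p = 0.333, which is the smallest p this design allows. Taken gene by gene, 10 of the 12 pairings of an alpha with a beta gene had a lower ratio in the IP in both pairs of libraries. The exceptions were Scn1a and Scn2a set against Scn2b. These pairings reuse the same few genes and libraries, so they are independent neither of each other nor of the Scn3b and Scn4b calls. Per kb of exon the alpha level was 1.34 and 1.61 times the beta level in total RNA and 1.22 and 1.12 times in the IP.

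The median log2 fold change was -0.094 for the 4 alpha genes, -0.041 in pair 1 and -0.13 in pair 2, and 0.41 for the 3 beta genes, 0.17 and 0.66. Across all 12336 genes it was 0.011. Exonic length differs between the families, with 11146 to 15766 bases for the alpha and 4656 to 5461 for the beta genes, and moves with the ratio. The 1353 tested genes with over 10 kb of exon had a median of -0.084, with 44 called higher and 198 lower, close to the alpha median. The 3111 genes with 4 to 6 kb had a median of 0.0039, below all 3 beta genes. Across genes the Spearman correlation of the fold change was -0.171 with exonic length and -0.315 with GC content, values that share the same libraries. GC content was 41.9% to 43.5% in Scn1a, Scn2a and Scn3a, 51.6% in Scn8a and 48.2% to 54.5% in the beta genes. With an offset for GC content and length Scn8a moved to 0.016, Scn3b to 0.35 with an edgeR adjusted p of 0.0815, which ends its call, and Scn4b to 0.66 with an adjusted p of 0.0114.

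**Figure D5:**
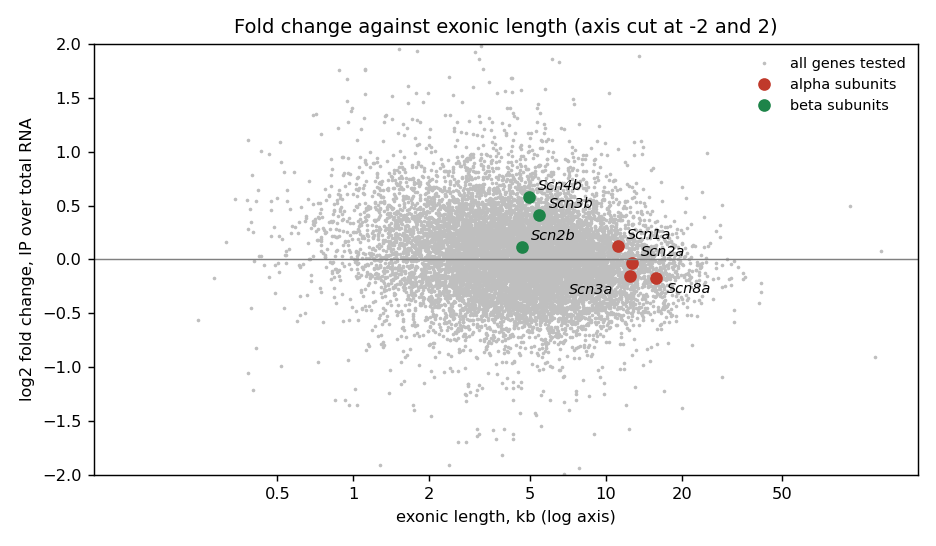
log2 fold change of IP over total RNA in the blocked fit against exonic length in kb (log axis) for all genes tested, in grey, with the alpha genes in red and the beta genes in green. The alpha genes sit within 0.18 of 0 among genes over 10 kb, and Scn3b and Scn4b sit at 0.41 and 0.58 among genes of about 5 kb; 28 genes beyond -2 or 2 are not drawn.

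The replicate numbers, called culture 1 and culture 2 here, differed in these genes. All 7 members were lower in culture 2 in total RNA and again in the IP, where 38.4% of all genes tested were. In total RNA the log2 difference of culture 2 from culture 1 ran from -0.16 for Scn8a through -0.36 for Scn2a, -0.51 for Scn4b, -0.56 for Scn3b, -0.61 for Scn2b and -0.74 for Scn1a to -1.10 for Scn3a. In the IP it ran from -0.074 for Scn3b to -1.04 for Scn3a. Of the 5 neuron markers, 1 was lower in culture 2 in total RNA and 2 in the IP, with log2 differences of 0.32 and 0.044 for their summed level. Excitatory markers were lower for 3 of 4 in total RNA and 2 of 4 in the IP, with summed differences of -0.11 and -0.21. GABAergic markers were lower for 3 of 5 and 4 of 5, with summed differences of 0.012 and -0.20. All 5 astrocyte markers were lower in both library kinds, with summed differences of -1.69 in total RNA and -1.84 in the IP, and so were all 4 microglia markers, at -3.56 and -3.13. Each culture is 1 sample, so this difference has no test, and the part of the neuronal make-up and of glial RNA in it was not tested.

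Several other sodium channel genes had few or no counts in these neurons. Of 8 listed, Scn4a had 0 counts in all libraries, which in the shallowest library allows up to 3 counts, and Scn7a, Scn9a and Scn11a did not pass the filter, with at most 20 counts in a library. Of the 4 tested, 0 were called by edgeR, where 6.63% of all genes tested were called higher and 7.55% lower. The median of the 4 was -0.11. Nalcn, which carries a sodium leak current at rest, was at 0.018.

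Proteins that hold or tune the channel at the axon initial segment were taken as the wider pathway. Of 13 partners and anchors, 12 were tested, with a median of 0.026. Of these 1 was called higher, where 6.63% of all genes tested were, and 1 lower, where 7.55% were. Counts this small do not set the list apart from all genes. Sptbn4, the beta-IV spectrin that ties the initial segment to actin, was called lower, from 391.9 ± 63.7 CPM in total RNA to 284 ± 47.8 CPM in the IP, a log2 fold change of -0.47 ± 0.098 (SE) with an edgeR adjusted p of 7.79e-05. Fgf12, an intracellular fibroblast growth factor homologue that binds the alpha C-terminus, was called higher at 0.35 ± 0.12 with an adjusted p of 0.0312, from 46.3 ± 2.84 to 59.2 ± 2.27 CPM. Its relatives Fgf11, Fgf13 and Fgf14 were at 0.30, 0.16 and 0.087 and were not called. Ank3, the ankyrin that anchors the alpha subunits, was at -0.18 and was not called.

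The sodium pump, which restores the gradient the channels run down, was taken as a further list. Of its 6 genes 2 were called higher by edgeR, where 6.63% of all genes tested were, and 0 lower, where 7.55% were. The median was 0.052. Atp1b3 was called higher at 0.82 ± 0.15 (SE), with an edgeR adjusted p of 6.76e-06, from 19.7 ± 5.17 CPM in total RNA to 34.8 ± 2.43 CPM in the IP. Atp1b2 was called higher at 0.50 ± 0.099 with an edgeR adjusted p of 2.98e-05. It stood at 770 and 347 CPM in IP 1 and 2, against 498 and 271 CPM in total RNA 1 and 2, which overlapped. On the log2 scale its culture 2 differed from culture 1 by -0.88 in total RNA and -1.15 in the IP.

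Genes whose pattern over the 4 libraries was most like that of the most counted alpha and beta gene were sought among 7767 tested genes with a mean of at least 10 CPM. By Euclidean distance in log2 CPM centred on each gene, the nearest to Scn8a were Cyhr1 (0.0168), Ep300 (0.0324) and Tmem250-ps (0.0392). The nearest to Scn2b were Klf3 (0.0539), Ampd3 (0.0567) and Rhob (0.0609). A match over 4 libraries is a description only.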

How the data were processed

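RPS2 eCLIP and total RNA libraries of mouse cortical neurons were analysed from the deposited raw counts of reads per gene, 1 file per library. Per the file headers, the authors counted stranded reads with featureCounts 1.5.3 on an mm10 gene annotation, without options for reads at several loci or in several genes. They trimmed reads with cutadapt and aligned them end to end with STAR. No removal of PCR duplicates was stated, so counting errors cover counting only. The deposited length column gives the merged exon bases per gene and was used to set levels between genes.

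Identifiers of 30934 of 31053 genes matched GENCODE M21 symbols, on the same build. Counts were filtered with filterByExpr, scaled by TMM and tested in edgeR 4.0.16 (R 4.3.3) with the quasi-likelihood test, two-sided, on all 12336 genes kept, with Benjamini-Hochberg adjustment and a threshold of 0.05. The replicate number was a block, since the study's methods take total RNA from the same samples as the IP. Its prior degrees of freedom were estimated as infinite. Pair ratios are differences of log2 CPM with a prior count of 2. Alternatives were the unpaired fit, other scalings, no filter, DESeq2 1.42.0, limma-voom (limma 3.58.1), an offset for GC content and length (mgcv 1.9.3), and leaving out a library or a pair. Protein identity came from translated coding sequences aligned in Biopython 1.88.

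The members were picked by family and the gene lists by function, both with earlier results of these data known. Named genes were the 7 members, up to 4 called genes of each related list, and the 3 nearest in pattern; other genes of these lists, and the cell markers, were named after their values were seen. Some genes of these lists, and some sequences, are not reported here.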

Additional observations from a re-analysis of the deposited data

How the results depend on the processing

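The count of members called higher, 2 with the replicate block, stayed at 2 with median-ratio size factors, without a low-count filter and in limma-voom, and was 1 with the GC and length offset. It was 0 with no replicate block, with library totals only, in DESeq2, and in every unpaired fit that left out 1 library. Scn3b was called in 4 of 7 blocked fits, with an adjusted p of 0.153 with library totals only, 0.243 in DESeq2 and 0.0815 with the offset. Scn4b was called in 5 of the 6 that gave it an adjusted p, with 0.0914 with library totals only, and DESeq2 gave it none. The count called lower was 0 in every fit. Scn3b and Scn4b kept their direction in 13 of 13 alternatives. Leaving out 1 library, unpaired, took Scn3b from 0.13 (without total RNA replicate 2) to 0.70 (without total RNA replicate 1), and Scn4b from 0.33 to 0.85 in the same fits. The alpha median of -0.094 moved to -0.17 with library totals only, where the all-gene median went from 0.011 to -0.073, and to -0.028 with the offset. It ran from -0.32 to 0.34 when 1 library or 1 pair was left out, so its direction was not stable. Those fits set a lone library against both cultures, which differed. The lower alpha to beta ratio in the IP, -0.35 on the log2 scale, ran from -0.57 to -0.25 when 1 gene was left out of the sums, and was -0.32 per kb. Depth limited Scn3a and Scn4b most, with 69 to 128 counts in the total RNA libraries.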
